A study of Homo sapiens with 4 samples.

Results

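The RNA levels of 10 genes of the Polycomb system were followed through decitabine (DAC) treatment of 2 human cell lines. They are EZH1, EZH2, EED, SUZ12, JARID2, PHF19, BMI1, CBX7, ASXL1 and KDM6A. Members were taken by gene symbol, as all probe sets that the array annotation assigns to these 10 symbols. This gave 34 of the 49395 probe sets on the array, of which 32 carry a member's symbol alone. Such a probe set was found for 9 members, out of 18132 genes in all, while BMI1 had only 2 probe sets, which it shares with the readthrough transcript COMMD3-BMI1.

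DAC is a cytidine analogue that is built into DNA and traps DNA methyltransferases, and it is used to treat myelodysplastic syndromes (MDS). RNA was measured in 4 conditions, MDS-L cells with DAC, MDS-L cells with DMSO, SKM-1 cells with DAC and SKM-1 cells with DMSO, on 4 PrimeView arrays with 1 array per condition. DAC was given at 1 µM in 5 pulses of 24 h and cells were harvested afterwards, whereas DMSO was the vehicle. Both lines come from people with myelodysplastic disease and were grown in the same serum-containing medium, to which IL-3 at 100 U/ml was added for MDS-L cells only. Medium and cell line can therefore not be told apart, and each condition is a single culture of a single line.

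Polycomb proteins keep genes silent through histone marks. Polycomb repressive complex 2 (PRC2) methylates histone H3 at a lysine of its tail, and PRC1 attaches ubiquitin to histone H2A and reads the PRC2 mark. The deubiquitinase module that holds ASXL1 removes the H2A mark, and the demethylase KDM6A removes the H3 mark. Mutations of ASXL1 and EZH2 are among the recurrent lesions of MDS.

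Values are log2 expression levels, and a difference of 1 is a 2-fold difference. Each gene was represented by its brightest probe set, and levels of different probe sets were not set against each other. Background was set on each array by the 359 probe sets of olfactory receptors, 90% of which read at or below it, and lay at 5.09 and 4.84 in MDS-L cells with DAC and DMSO and at 5.07 and 4.88 in SKM-1 cells with DAC and DMSO. A gene counted as measured in a line when it exceeded the background on at least 1 of that line's arrays, and lower values were raised to the background. No test is possible within a line, so counts of members are given beside the share of all measured genes past the same fold. For scale, the differences of probe sets of the same gene scattered with a pooled SD of 0.28 over 7609 genes in MDS-L cells and of 0.29 over 7642 genes in SKM-1 cells, which covers probe set disagreement and not the spread between cultures.

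DAC-treated MDS-L cells had less EZH2 and less PHF19 RNA than DMSO-treated MDS-L cells, and no member was 2-fold different in SKM-1 cells. In MDS-L, a level at least 2-fold lower was found for 2 of 9 measured members, and at least 2-fold higher for 0 of them, where 3.18% of 12688 measured genes were that much lower and 3.62% that much higher. The same 2 members, EZH2 and PHF19, passed the 1.5-fold limit downward and 0 passed it upward, against 10.7% and 9.06% of all genes. In SKM-1, 0 of 9 members passed the 2-fold limit in either direction, where 1.43% of 12714 genes were lower and 2.71% higher. At 1.5-fold the count in SKM-1 was also 0, against 9.15% lower and 9.65% higher. The median difference of the 9 members was -0.32 in MDS-L, beside 0.04 for all genes, and 0.15 in SKM-1, beside 0.05.

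**Figure D1:**
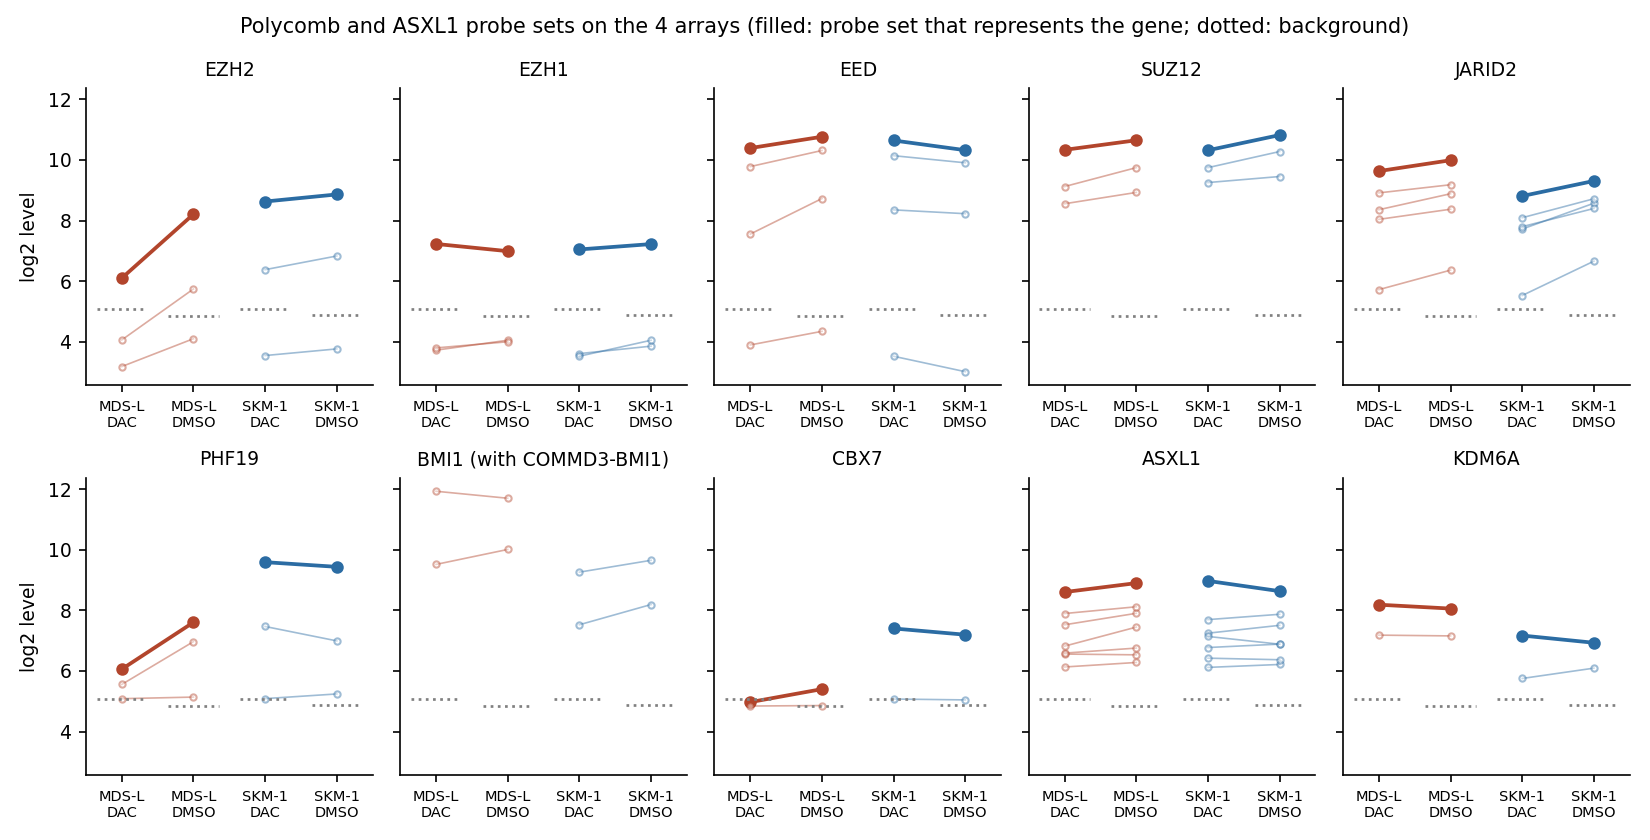
Log2 level (vertical axis) of each probe set of the 10 members on the 4 arrays, DAC left of DMSO in each line, MDS-L in red and SKM-1 in blue. Filled points joined by a thick line are the probe set that represents the gene, open points are its other probe sets, and dotted segments are the background of each array. The DAC point of EZH2 and of PHF19 in MDS-L lies far below its DMSO point, while the filled DAC and DMSO points of each other member are less than 2-fold apart in either line. Among the open points of the other members, a dimmer EED probe set in MDS-L and the dimmest JARID2 probe set in SKM-1 are more than 2-fold apart.

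EZH2 is the main methyltransferase of PRC2 in dividing cells. Its level was 6.10 in MDS-L cells with DAC and 8.21 with DMSO, against 8.63 in SKM-1 cells with DAC and 8.86 with DMSO. The MDS-L DAC array was the lowest of the 4, and the other 3 lay within a narrower range. The difference was -2.11 in MDS-L, a 4.31-fold lower level that placed EZH2 at rank 26 from the bottom of 12688 genes, and -0.23 in SKM-1. A dimmer EZH2 probe set read 4.06 and 5.75 in MDS-L with DAC and DMSO, and 6.38 and 6.83 in SKM-1 with DAC and DMSO, so it was also lowest in DAC-treated MDS-L cells, where it lay under the background. The third EZH2 probe set lay under the background on every array. With the background set at the 99th percentile of the olfactory receptor probe sets, the EZH2 difference in MDS-L shrank to -1.33, and with the median over its probe sets in place of the brightest it was -0.66.

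EZH1 is the related methyltransferase that also serves PRC2 in cells that do not divide. It stood at 7.23 in MDS-L cells with DAC and 6.99 with DMSO, and at 7.05 in SKM-1 cells with DAC and 7.23 with DMSO. These differences, 0.24 and -0.18, were smaller than the scatter between probe sets of one gene. Only 1 of its 3 probe sets exceeded the background.

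PHF19 belongs to the Polycomb-like proteins, which guide PRC2 to its sites on chromatin. Its level was 6.06 in MDS-L cells with DAC and 7.60 with DMSO, against 9.59 in SKM-1 cells with DAC and 9.43 with DMSO. DAC-treated MDS-L cells were again the lowest of the 4 arrays. The difference was -1.55 in MDS-L, 2.92-fold lower and rank 101 from the bottom, and 0.15 in SKM-1. A second probe set gave 5.56 and 6.97 in MDS-L with DAC and DMSO, which is a difference of -1.41, and 7.47 and 6.99 in SKM-1 with DAC and DMSO. The third stayed near the background, between 5.09 and 5.24 on all 4 arrays. With the higher background the PHF19 difference in MDS-L was -0.73, under the 2-fold limit.

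EED, the subunit that reads the PRC2 mark and stimulates the enzyme, had differences of opposite sign in the 2 lines. It stood at 10.39 in MDS-L cells with DAC and 10.76 with DMSO, and at 10.64 in SKM-1 cells with DAC and 10.32 with DMSO. The 3 EED probe sets above the background were all lower with DAC in MDS-L, with differences of -1.17 to -0.37, and all higher with DAC in SKM-1, with differences of 0.13 to 0.32. The largest of these 6 differences came from a dimmer probe set that had 7.56 and 8.73 in MDS-L with DAC and DMSO.

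SUZ12, the scaffold of PRC2, was lower with DAC in both lines. Its level was 10.33 in MDS-L cells with DAC and 10.65 with DMSO, and 10.32 in SKM-1 cells with DAC and 10.82 with DMSO. All 3 SUZ12 probe sets were lower in both lines, with differences of -0.62 to -0.32 in MDS-L cells and -0.53 to -0.20 in SKM-1 cells. Each of these is less than a 2-fold difference.

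JARID2, an accessory subunit that helps PRC2 to recognise ubiquitinated H2A, showed the same direction. Levels of 9.63 with DAC and 9.99 with DMSO were found in MDS-L cells, and of 8.81 with DAC and 9.31 with DMSO in SKM-1 cells. All 5 JARID2 probe sets were lower with DAC in both lines, with differences of -0.64 to -0.27 in MDS-L cells and -1.13 to -0.50 in SKM-1 cells. The one beyond 2-fold is the dimmest, at 5.53 in SKM-1 cells with DAC and 6.66 with DMSO, and does not represent the gene.

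Of the PRC1 members, CBX7 carries the chromodomain that reads the PRC2 mark. It stood at 4.97 in MDS-L cells with DAC, under the background, and at 5.40 with DMSO, so it was at least 1.25-fold lower with DAC. In SKM-1 cells it was well above the background, at 7.40 with DAC and 7.20 with DMSO. The second CBX7 probe set hardly left the background in either line.

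BMI1 is a core partner of the PRC1 ubiquitin ligase and is known for keeping blood stem cells self-renewing. Both of its probe sets also match COMMD3-BMI1, so the 2 transcripts cannot be told apart and neither was counted. The brighter one read 11.93 in MDS-L cells with DAC and 11.70 with DMSO, and 9.26 in SKM-1 cells with DAC and 9.65 with DMSO. The dimmer one read 9.51 and 10.01 in MDS-L with DAC and DMSO, and 7.52 and 8.19 in SKM-1 with DAC and DMSO. The probe sets disagreed on the direction in MDS-L (0.23 and -0.49) and were both lower with DAC in SKM-1 (-0.39 and -0.67).

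ASXL1, the partner that activates the deubiquitinase BAP1, differed little. It stood at 8.60 in MDS-L cells with DAC and 8.90 with DMSO, and at 8.97 in SKM-1 cells with DAC and 8.63 with DMSO. In MDS-L, 6 of its 7 probe sets were lower with DAC and 1 was higher (-0.63 to 0.02). In SKM-1, 3 were higher and 4 lower (-0.26 to 0.34), so the direction there depends on the probe set.

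KDM6A, the demethylase that opposes PRC2, had 8.19 in MDS-L cells with DAC and 8.06 with DMSO, and 7.17 in SKM-1 cells with DAC and 6.93 with DMSO. Its second probe set differed by 0.03 in MDS-L cells and by -0.34 in SKM-1 cells, against 0.13 and 0.24 for the brighter one. No direction with DAC was shared by both KDM6A probe sets in both lines.

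Counted over single-symbol probe sets above the background, 24 of 28 member probe sets were lower and 4 higher with DAC in MDS-L, where 54.3% of all 29223 such probe sets were lower. In SKM-1, 17 of 28 were lower and 11 higher, where 53.1% of 29161 were lower. Probe sets of one gene share their transcripts, so these 28 are not independent.

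**Figure D2:**
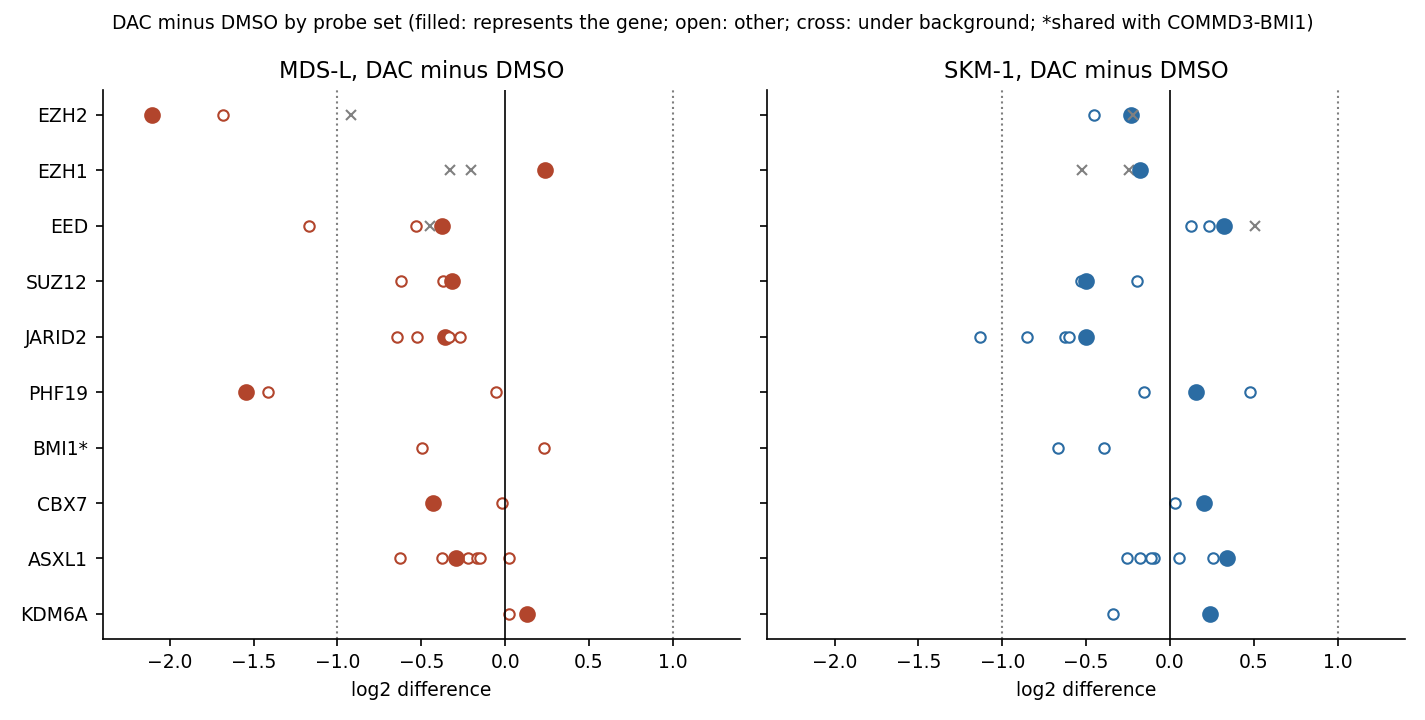
Log2 difference, DAC minus DMSO (horizontal axis), of every member probe set in MDS-L (left) and SKM-1 (right), from the values as deposited. Filled circles represent the gene, open circles are its other probe sets above the background on at least 1 array, crosses are probe sets under it on both, and dotted lines mark 2-fold. EZH2 and PHF19 extend to -2.11 and -1.55 in MDS-L, while in SKM-1 the farthest probe set is the dimmest of JARID2 at -1.13.

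An effect of DAC common to both lines was tested with limma, with cell line as a block and therefore only 1 residual degree of freedom among the arrays. It passed an adjusted p of 0.05 for 0 of 9 members, and for 0 of 11984 genes measured in both lines (0%). At an unadjusted p under 0.05 there were 0 members and 1429 genes, and the lowest adjusted p of any gene was 0.357. The fitted mean difference was -1.17 for EZH2 (SE 0.47, limma adjusted p = 0.413) and -0.70 for PHF19 (SE 0.44, limma adjusted p = 0.489), both wide because the lines differ. For SUZ12 and JARID2, lower in both lines, the fit gave -0.41 (SE 0.22, limma adjusted p = 0.452) and -0.43 (SE 0.24, limma adjusted p = 0.458).

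The lines also differed in their levels of 3 members under both treatments, on the probe set that represents the gene. PHF19 was 11.5-fold lower in MDS-L than in SKM-1 with DAC and 3.56-fold lower with DMSO. CBX7 was at least 4.98-fold lower in MDS-L with DAC and 3.47-fold lower with DMSO, whereas KDM6A was 2.02-fold higher in MDS-L with DAC and 2.18-fold higher with DMSO. Over all probe sets above the background, log2 line differences ran from -3.53 to -0.002 for PHF19 and from -2.43 to -0.19 for CBX7. With DMSO the second PHF19 probe set read nearly the same in both lines, so the PHF19 difference depends on the probe set. The third PHF19 and the second CBX7 probe sets stayed near the background, so their small line differences say little. KDM6A ran from 1.02 to 1.43. These 3 of 9 members passed limma's test of MDS-L minus SKM-1, with treatment as a block, at an adjusted p of 0.05, where 28.7% of 11984 genes passed (3444 genes). The mean log2 differences were -2.68 for PHF19 (SE 0.44, limma adjusted p = 0.0117), -2.06 for CBX7 (SE 0.21, limma adjusted p = 0.00379) and 1.07 for KDM6A (SE 0.22, limma adjusted p = 0.0224). The DAC and DMSO arrays of a line stand in as its replicates. With treatment as a term, the error behind these p-values is how far the line difference varied between DAC and DMSO, moderated over genes. It does not cover the spread between cultures.

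EZH2 was 5.76-fold lower in MDS-L than in SKM-1 with DAC and 1.57-fold lower with DMSO, and this line difference missed the threshold (-1.59, SE 0.47, limma adjusted p = 0.0565). JARID2 was 1.77-fold higher in MDS-L with DAC and 1.61-fold higher with DMSO, and passed the threshold only without the trend (0.75, SE 0.24, limma adjusted p = 0.0677, and 0.0481 without the trend). The 4 other members, EZH1, EED, SUZ12 and ASXL1, had adjusted p-values of 0.819 to 0.946. Both BMI1 probe sets, not tested, were higher in MDS-L, by 1.99 and 2.67 with DAC and by 1.82 and 2.05 with DMSO.

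**Figure D3:**
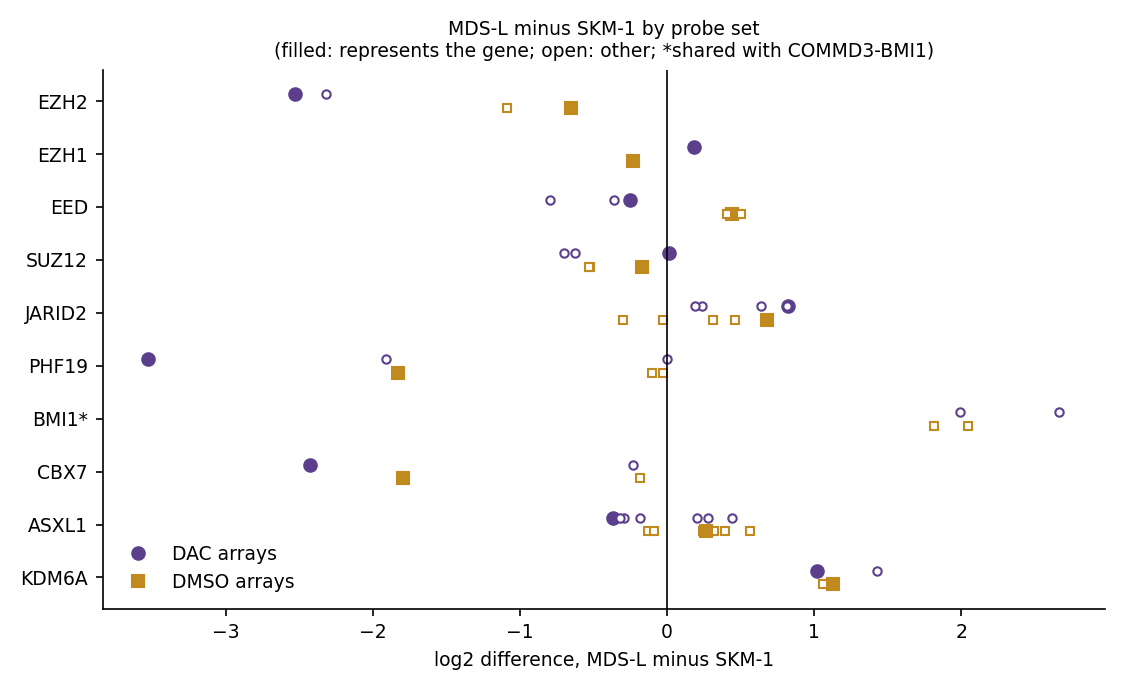
Log2 difference, MDS-L minus SKM-1 (horizontal axis), of member probe sets above the background, with DAC (circles) and with DMSO (squares), from the values as deposited. Filled symbols represent the gene and open ones are its other probe sets. The filled symbols of PHF19 and CBX7 lie to the left under both treatments, while their open symbols reach -0.002 and -0.19. All symbols of KDM6A and BMI1 lie to the right. The DAC symbol of EZH2 lies much farther left than its DMSO symbol.

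Other PRC2 subunits were examined in a list of 8 genes, which also holds LCOR and the PRC2 inhibitor EZHIP. In MDS-L, 0 of 7 measured were 2-fold different, where 3.18% of all measured genes were that much lower and 3.62% higher. The MDS-L median difference was -0.39. In SKM-1, 1 of 8 was 2-fold higher (EZHIP) and 1 was 2-fold lower (LCOR), where 2.71% and 1.43% of all measured genes were. The SKM-1 median was -0.04, or -0.49 without the probe sets that the array's naming marks as able to match several transcripts (_s_at and _x_at). LCOR, whose locus also encodes a PRC2-binding protein, stood at 5.84 in SKM-1 cells with DAC and 7.53 with DMSO, 3.23-fold lower, and at 8.67 and 8.96 in MDS-L cells with DAC and DMSO, on its only probe set. With the higher background the SKM-1 difference of LCOR was -0.89, under the 2-fold limit. EZHIP, an inhibitor of PRC2, stood at 9.19 in SKM-1 cells with DAC and 8.08 with DMSO, 2.15-fold higher, and lay under the background on both MDS-L arrays. It was at least 17.2-fold lower in MDS-L than in SKM-1 with DAC and at least 9.45-fold lower with DMSO.

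MTF2 is a Polycomb-like protein, as PHF19 is. It had 10.93 in MDS-L cells with DAC and 11.33 with DMSO, and 9.87 in SKM-1 cells with DAC and 10.70 with DMSO. All 9 MTF2 probe sets were lower with DAC in both lines, with differences of -0.67 to -0.40 in MDS-L cells and -0.93 to -0.23 in SKM-1 cells. RBBP7, a histone-binding subunit, had 8.75 and 9.59 in MDS-L with DAC and DMSO, and 8.85 and 9.34 in SKM-1 with DAC and DMSO. MTF2 and RBBP7 gave common differences of -0.62 (SE 0.23) and -0.67 (SE 0.25), each with a limma adjusted p of 0.413. Between lines, LCOR and MTF2 were higher in MDS-L (2.13 and 0.85, limma adjusted p = 0.0149 and 0.0482), and EPOP was lower.

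Of the other canonical PRC1 subunits, 0 of 8 measured were past 2-fold in either line. Among all measured genes, 3.18% were that much lower and 3.62% higher in MDS-L, and 1.43% and 2.71% in SKM-1. In so short a list, a count of 0 lies near these shares. The list median was -0.12 for MDS-L and 0.14 for SKM-1. The MDS-L median was 0.17 under the higher background, so it has no settled sign. CBX2, another chromodomain reader, had the largest difference of the list, with 7.55 in MDS-L cells with DAC and 8.15 with DMSO. Between lines, 5 of the 8 passed limma's test at an adjusted p of 0.05, where 28.7% of all 11984 genes passed. Of these 5, CBX2, PHC2 and PHC3 were higher in MDS-L and CBX6 and PCGF2 lower.

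Variant PRC1 subunits, which include the E2F6 and PCGF6 complex of germline gene silencing, had 0 of 16 measured in MDS-L cells past 2-fold, and 0 of 17 in SKM-1 cells. Of all measured genes, 3.18% were that much lower and 3.62% higher in MDS-L, and 1.43% and 2.71% in SKM-1. The median of the variant subunits was -0.12 for MDS-L and -0.21 for SKM-1. E2F6 was lower with DAC on all 5 probe sets in both lines, with differences of -1.04 to -0.62 in MDS-L cells and -1.28 to -0.39 in SKM-1 cells. PCGF6 had 7.18 and 8.03 in MDS-L cells with DAC and DMSO, and 7.48 and 7.69 in SKM-1 cells with DAC and DMSO. PCGF5, named after its values were seen, lay under the background in MDS-L at 3.77 with DAC and 4.12 with DMSO, and stood at 8.74 with DAC and 8.98 with DMSO in SKM-1.

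Around ASXL1, the genes of the deubiquitinase module and its partners had 0 of 7 measured past 2-fold in MDS-L cells. There 3.18% of all measured genes were that much lower and 3.62% higher. In SKM-1 cells 1 of 7 was past 2-fold, downward, where 1.43% of all measured genes were that much lower. That gene was OGT, an enzyme that attaches a sugar to nuclear proteins. It stood at 7.43 in SKM-1 cells with DAC and 9.02 with DMSO, 3.02-fold lower, and at 8.89 and 9.28 in MDS-L cells with DAC and DMSO. The 4 OGT probe sets above the background in SKM-1 ranged in difference from -1.60 up to 0.03, so they do not share one size. FOXK2, a DNA-binding partner, had 8.51 in SKM-1 cells with DAC and 9.15 with DMSO, while its second probe set differed by -0.05. Around KDM6A, 0 of 10 partners were past 2-fold in either line. The shares of all measured genes were 3.18% lower and 3.62% higher in MDS-L, and 1.43% and 2.71% in SKM-1. PAXIP1 was the only partner past 1.5-fold, at 7.44 in SKM-1 cells with DAC and 8.04 with DMSO. In SKM-1, 9.15% of all measured genes were that much lower.

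Of 21 well-known Polycomb target genes on the array, 8 were measured in MDS-L cells and 11 in SKM-1 cells, while the others lay under the background. The median difference of the measured targets was 0.41 in MDS-L, beside 0.04 for all genes, but 0.16 with all 21 targets kept at their deposited values and 0.24 with the median over probe sets. In SKM-1 it was -0.05, beside 0.05 for all genes, and 0.10 with all 21 kept. CDKN1C, an inhibitor of cyclin-dependent kinases, stood at 12.15 in MDS-L cells with DAC and 10.37 with DMSO, 3.44-fold higher, and at 6.74 and 6.56 in SKM-1 cells with DAC and DMSO. CDKN2A, the classical target of BMI1 and CBX7, stood at 8.47 in MDS-L cells with DAC and 7.60 with DMSO, and at 13.43 in SKM-1 cells with DAC and 12.91 with DMSO. The 3 CDKN2A probe sets differed by 0.05 to 0.87 in MDS-L. Neither gene passed limma's test of a common DAC effect (adjusted p = 0.42 for CDKN1C and 0.413 for CDKN2A). OLIG2, a transcription factor of the nervous system, was at least 1.76-fold higher with DAC in MDS-L cells, where it counted as measured only through its DAC array. CCND2, a D-type cyclin, differed by 0.36 in MDS-L cells and by -0.71 in SKM-1 cells. DNA methylation and histone marks were not analysed here.

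**Figure D4:**
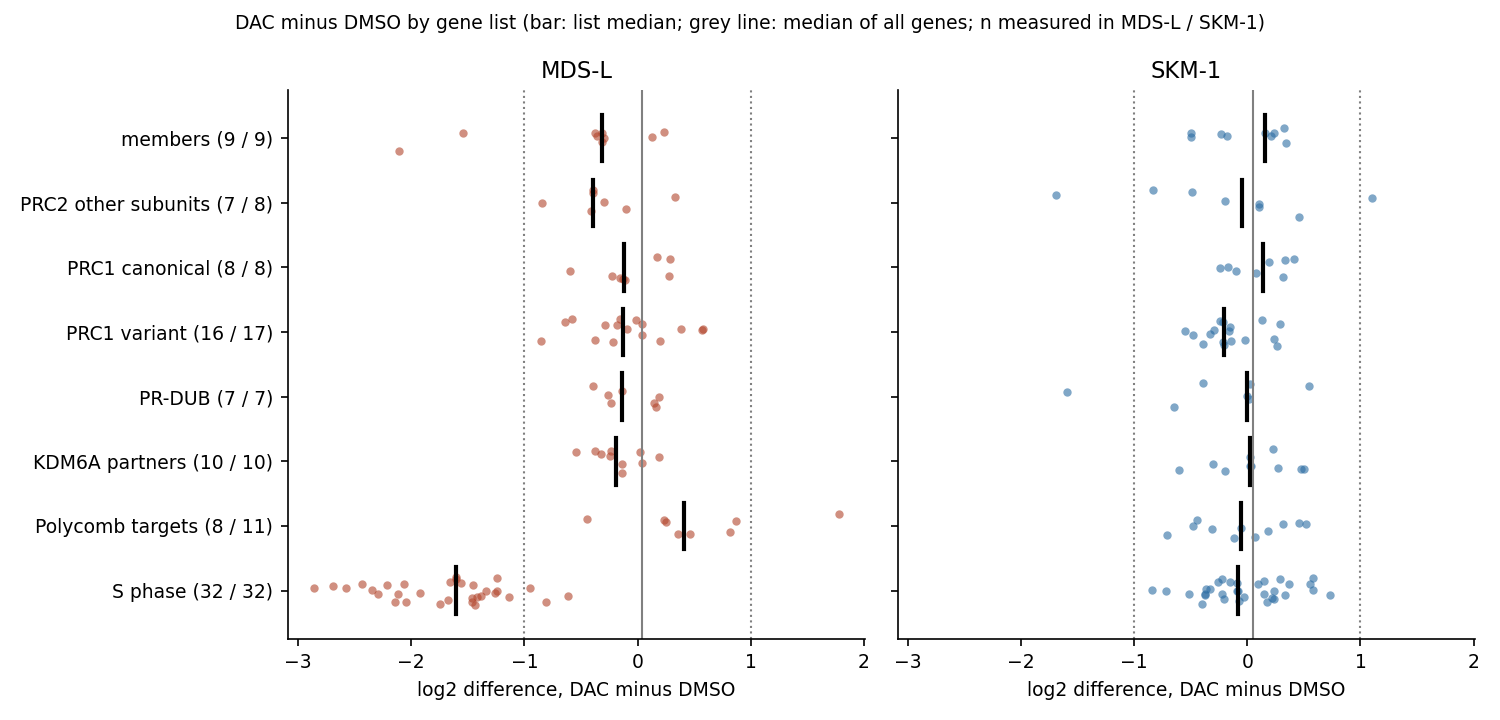
Log2 difference, DAC minus DMSO (horizontal axis), of each measured gene by list in MDS-L (left) and SKM-1 (right), with values under the background raised to it. Black bars are list medians, the grey line is the median of all genes and dotted lines mark 2-fold. The S phase list lies left of the line in MDS-L with a median of -1.60, and in SKM-1 its median is -0.08.

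For EZH2 and PHF19, the members with the largest differences, the genes of most similar levels were looked up. By Euclidean distance between mean-centred log2 levels over the 4 arrays, among 11130 genes above the background on all arrays and outside the lists, the genes closest to EZH2 were MCM10 (0.22), CDCA8 (0.36) and BRCA1 (0.36). The closest to PHF19 were CENPK (0.34), MAGOHB (0.35) and PLAAT1 (0.40). MCM10, a replication initiation factor, had 6.65 in MDS-L cells with DAC and 8.73 with DMSO, and 9.38 in SKM-1 cells with DAC and 9.62 with DMSO. With only 4 arrays, such likeness is a description.

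Genes of S phase, which copy DNA and supply its building blocks, were lower with DAC in MDS-L beside EZH2 and PHF19. All 32 measured genes lay below 0 in MDS-L, where 5869 of 12688 genes did, with a median of -1.60. At least 2-fold lower were 29 of the 32, where 3.18% of all measured genes were. In SKM-1, 0 of 32 were 2-fold different, where 1.43% of all measured genes were that much lower and 2.71% higher. Of the 32, 14 lay above 0 and 18 below in SKM-1, and the median was -0.08. RRM2, a subunit of ribonucleotide reductase, was 7.25-fold lower in MDS-L, and its difference in SKM-1 was 0.29. POLE2, E2F8 and TYMS differed by -2.69, -2.57 and -2.43 in MDS-L cells and by -0.09, 0.55 and 0.15 in SKM-1 cells. With the higher background, POLE2 and E2F8 differed by -1.84 and -0.93 in MDS-L. In RNA of whole cultures, fewer cells in S phase and less RNA per cell cannot be told apart, and the part of this shift in the EZH2 and PHF19 values was not tested.

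Promoters of the 10 members were read from RefSeq on GRCh38.p14 as windows of 250 bases before to 50 after each start, 16 windows in all. They are rich in CpG, with 16 to 65 CpG dinucleotides and a median of 34, beside a median of 14 over 35116 promoters. An E2F-type motif of 8 letters was searched on both strands in 4 forms, TTTCCCGC, TTTCGCGC, TTTGCCGC and TTTGGCGC, which occur in 1.63%, 0.515%, 0.607% and 0.652% of all promoters. E2F factors are the transcription factors of S phase genes. Any form occurred in 3.31% of promoters and in 3.99% of 27305 genes, in 18 of 28 S phase genes with a promoter entry, and in 4 of the 10 members. It was found in 4 of the 16 member windows. EZH2 and PHF19 have 2 windows each, of which 1 held a match and 1 held none. Every form contains a CpG, and the shares over all promoters and genes were not matched for CpG content. Those 4 matches are shown because they include EZH2 and PHF19, the members that differed most, beside EZH1 and SUZ12, which differed little. Each run of 30 bases reads 5′ to 3′ on the gene's strand, with the match in capitals.
EZH2: gggctgccgcgTTTGGCGCtcggtccggtc
PHF19: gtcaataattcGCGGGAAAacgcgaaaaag
SUZ12: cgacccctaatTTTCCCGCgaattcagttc
EZH1: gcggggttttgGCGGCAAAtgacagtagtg

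The EZH2 run lies at chr7:148884272-148884301 on the minus strand, with the match at bases 2 to 9 after the start. The PHF19 run lies at chr9:120877322-120877351 on the minus strand, with the match at bases -152 to -145 from the start, and the capitals are TTTCCCGC read from the opposite strand. The SUZ12 run lies at chr17:31936807-31936836 on the plus strand, with the match at bases -189 to -182. The EZH1 run lies at chr17:42745137-42745166 on the minus strand, with the match at bases -115 to -108, where the capitals are TTTGCCGC read from the opposite strand. A match describes letters in a window, and binding was not analysed. EED, JARID2, BMI1, CBX7, ASXL1 and KDM6A held no match in their windows.

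Both lines were checked against marker genes. Of 11 myeloid markers on the array, 10 exceeded the background on each MDS-L array, and 8 with DAC and 10 with DMSO in SKM-1. The median difference of the monocyte markers was 0.96 in MDS-L (6 measured) and 0.97 in SKM-1 (5 measured), and the mean level of all 7 on the array was 8.33 with DAC and 7.37 with DMSO in MDS-L and 8.20 with DAC and 7.48 with DMSO in SKM-1. CD3D, a T cell receptor subunit, read 8.91 in MDS-L cells with DAC and 3.98 with DMSO, where CD3G lay under the background on both arrays, and 6 and 3 of 8 T and NK cell markers exceeded the background with DAC and DMSO. Megakaryocyte markers had a median difference of 0.56 in MDS-L cells, with 4 higher and 1 lower, and of 0.22 in SKM-1 cells. In MDS-L, PPBP, a platelet chemokine, was 4.40-fold higher with DAC and GP1BA, a platelet receptor subunit, 2.01-fold higher. Both lay under the background in SKM-1. ITGA2B, the brightest of this list in MDS-L, was the lower one, at 11.47 with DAC and 11.52 with DMSO. Its 3 probe sets differed by -0.36 to -0.05 there. Erythroid markers had medians of 0.36 for MDS-L and 0.78 for SKM-1, and B cell markers of 0.42 for MDS-L and 0.47 for SKM-1, with the B cell marker MS4A1 under the background on every array. Of 10 measured myeloid markers, 5 were higher and 5 lower with DAC in MDS-L, with a median difference of 0.04. The largest differences among them were downward. CEBPA, a transcription factor of granulocyte development, was 2.64-fold lower with DAC in MDS-L, and the progenitor marker CD34 was 1.79-fold lower. The part of these marker differences in the members' values was not tested.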

How the data were processed

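Total RNA of 4 cultures was hybridised to PrimeView arrays by the authors, who deposited 1 log2 value per probe set and array. Their methods name RMA in Partek Genomics Suite, while the submitters' processing notes name MAS5, with no version of either. Values ran from 2.11 to 14.99, the sorted values of the arrays lay within 0.18 of each other, and they were used as deposited. With 1 array per condition, array number and signal over background limit the precision.

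Of 46826 annotated probe sets, 44994 with 1 symbol were kept and 1832 with several were left out, apart from those of BMI1. The annotation names no build. The members and the gene lists were chosen with earlier results of these data known. Named from each list were genes at least 1.5-fold different in either line, at most 6 by size, and for S phase the 4 largest. Of the 26 Polycomb targets 5, of the 13 canonical PRC1 genes 3, of the 10 deubiquitinase genes 1 and of the 33 S phase genes 1 are not analysed here.

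Differences were computed with Python 3.11.15, numpy 2.4.6 and pandas 2.3.3 and drawn with matplotlib 3.10.9. Two-sided tests used limma 3.58.1 in R 4.3.3, with cell line and treatment as terms, empirical Bayes with a trend, and Benjamini-Hochberg adjustment over 11984 genes. The steps were tested on simulated data, with the same changes added in both lines to genes well above the background. Changes in a single line and values near the background were not simulated. Alternatives were another probe set rule, another background, another scaling, another fold limit and another model.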

Additional observations from a re-analysis of the deposited data

Results flagged for a closer look

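In the 2 lines, 5 members had differences of opposite sign, on the probe set that represents the gene. The difference between lines, MDS-L minus SKM-1 of DAC minus DMSO on the log2 scale, was -1.70 for PHF19, -0.69 for EED, -0.63 for ASXL1, -0.52 for CBX7 and 0.42 for EZH1. With 1 array per condition, none of these differences was tested. In EED all 3 probe sets above the background had the opposite sign in the 2 lines. The SKM-1 differences of PHF19 (0.15) and CBX7 (0.21) were smaller than the scatter between probe sets of one gene. So were both EZH1 differences (0.24 in MDS-L and -0.18 in SKM-1). For ASXL1 the direction in SKM-1 varied among its 7 probe sets.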

How the results depend on the processing

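Of the count of members at least 2-fold different in MDS-L (2), 1 was left with the median over probe sets (PHF19, -1.41), 1 with the background at the 99th percentile (EZH2, -1.33) and 1 at a 3-fold limit (EZH2). The median difference of the members in MDS-L (-0.32) was -0.63 with the median over probe sets. When any probe set above the background could count, an alternative chosen after seeing the data, the MDS-L count became 3 through EED at -1.17 and the SKM-1 count of 0 became 1 through JARID2 at -1.13. With this MDS-L count of 3 included, 33 recomputed values of these counts, medians and limma calls kept within 1.5 times the count or within the scatter between probe sets. Every model tried called 0 members for a common DAC effect and 3 or 4 for a difference between lines. Of the values of single genes and of other lists, 369 stayed within that scatter and 19 moved past it, and none of the gene differences past 2-fold changed sign. List medians near 0 had no settled sign: under alternatives the deubiquitinase list reached 0.03 in MDS-L cells and 0.09 in SKM-1 cells, the KDM6A partners -0.03 in SKM-1 and the Polycomb targets 0.10 in SKM-1. Scaling moved the median of all genes by less than 0.1. The limma fit pairs DAC and DMSO arrays by cell line; with no replicate block of this kind, 257 genes in place of 1429 had an unadjusted p under 0.05 for DAC, and 0 in either fit passed after adjustment. Leaving out an array would leave a line without a comparison.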
